A study of Mus musculus with 7 samples.

Results

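The 44 genes described here encode the enzymes and core subunits that write, erase or read DNA methylation and histone marks, and they were taken by name from a table of read counts for 52636 mouse genes. They fall into 4 classes: 7 genes of DNA methylation and its removal, 12 Polycomb subunits, 10 histone deacetylases and sirtuins, and 15 histone methyltransferases, demethylases and acetyltransferases. The counts come from polyadenylated RNA of liver endothelial cells isolated by flow sorting, in 3 libraries with the genotype Control and 4 with the genotype c-Maf KO, a knockout of Maf, which encodes the transcription factor c-Maf. The labels, which also call the controls WT, give no strain, age, sex, sorting markers, allele or driver of the deletion, so it is not given in the sources used here in which cells Maf was deleted, and whether each library is a separate animal is not stated either. The p-values therefore measure only library-to-library spread, which may be technical. All 44 genes passed the filter on low counts that left 15512 genes. Tet1 passed it only through the KO libraries.

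DNA methylation at CpG sites is copied at each round of replication by Dnmt1, which Uhrf1 brings to newly made DNA, while Dnmt3a and Dnmt3b set new methylation and the Tet enzymes oxidise it as a step toward removal. Polycomb repressive complex 2 methylates histone H3 through Ezh1 or Ezh2 together with Eed and Suz12, and Polycomb repressive complex 1 reads that mark through a Cbx subunit and ubiquitinates histone H2A through Ring1 or Rnf2 with a Pcgf partner such as Bmi1. Deacetylases and the acetyltransferases Ep300 and Crebbp set histone acetylation, and lysine methyltransferases and demethylases set marks of active or silent chromatin. RNA levels say nothing about protein, enzyme activity or the marks themselves, none of which were measured here.

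Maf itself was read first as a check of the labels. Its level was 1664, 2088 and 2147 CPM (counts scaled to a common library total, with the scaling factors given under the processing) in controls 1 to 3 and 28.9, 159, 125 and 37.7 CPM in KO 1 to 4. The change was -4.49 on the log2 scale (standard error, SE, 0.576, adjusted p = 0.000347 by edgeR's quasi-likelihood test with Benjamini-Hochberg adjustment over all genes tested, the test behind each adjusted p below unless another is named).

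Among the 44 genes, 15 rose and 7 fell in the KO at an adjusted p under 0.05, and 22 did not pass. The called share was 50%, against 45.2% of all genes tested. Those that rose were 34.1% of the 44, against 23% of all genes tested. Tet1 could be tested only if higher in the KO, and without its rise 14 of the 44 (31.8%) remained. No such genes were left out of the 23%. Those that fell were 15.9%, against 22.2%. KO and control libraries did not overlap for 27 of the 44 genes, against 50.3% of all genes tested, and those 27 included all 22 that were called. Rbbp4, Hdac7, Kmt2a, Kdm4a and Ehmt1 did not overlap and did not pass. The median change of the 44 was 0.12 on the log2 scale, against 0.04 over all genes tested.

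Changes of 2-fold or more were found in 6 of the called genes. Dnmt3b, Uhrf1, Tet1, Ezh2 and Suv39h2 rose by that much, 11.4% of the 44 against 10.5% of all genes tested. Without the rise of Tet1, which had to be higher to be tested, 4 of the 44 (9.09%) remained. Cbx7 fell by 2-fold or more, 2.27% against 5.95%. The plot of log2 changes by class shows Uhrf1 far to the right of every other gene, at 3.54, and Cbx7 alone on the left, at -1.41.

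**Figure D1:**
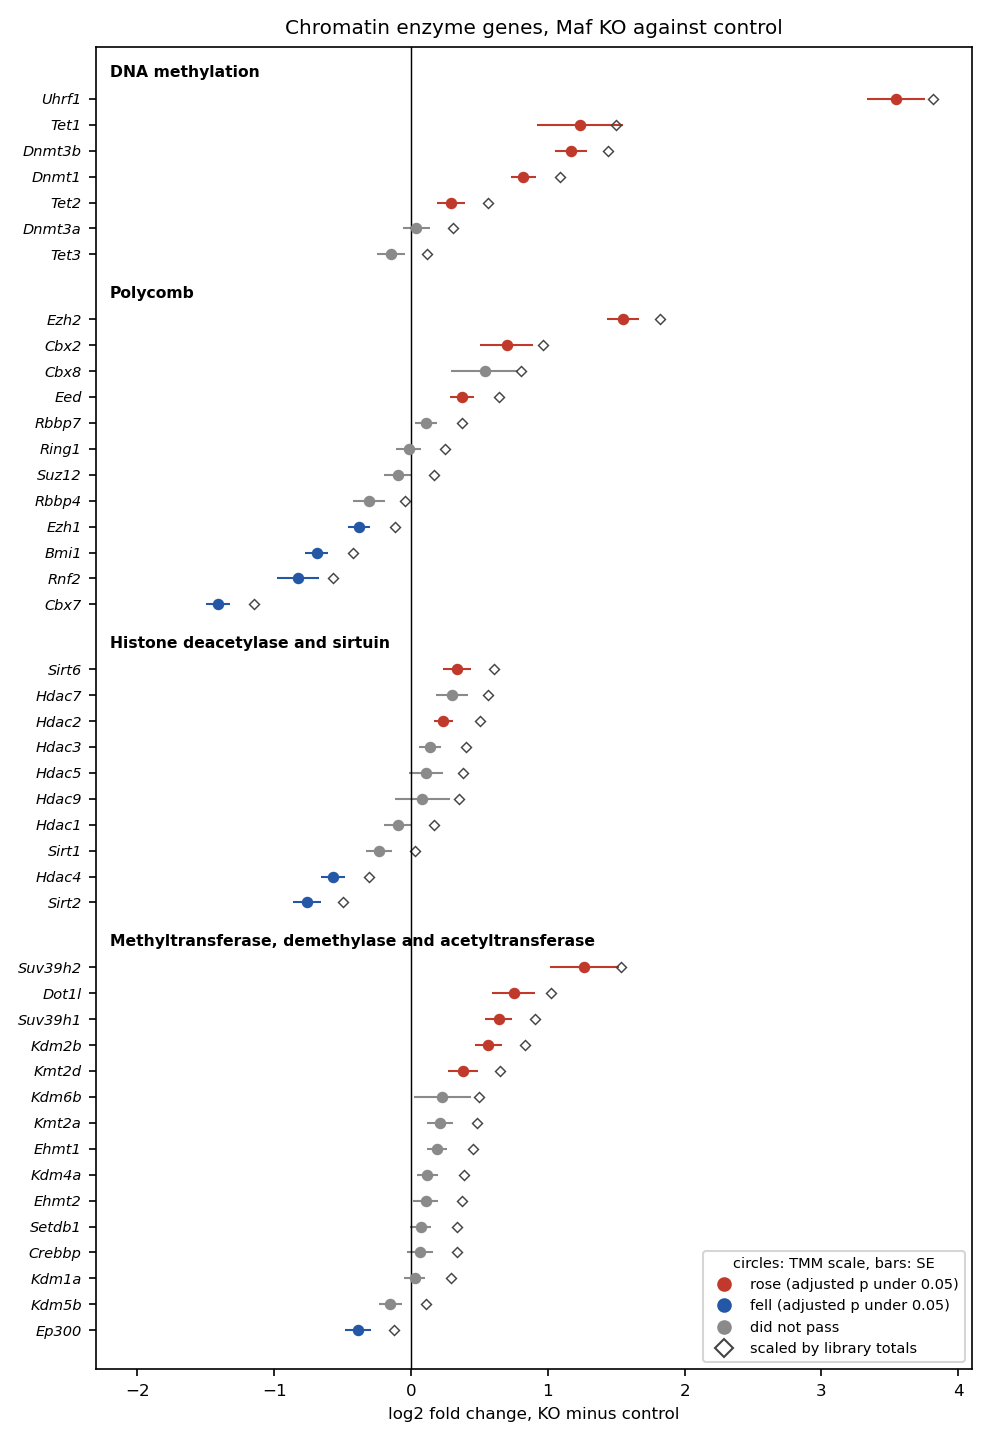
Log2 change, KO against control, of each of the 44 genes by class (horizontal axis), with filled circles for the main scaling, bars for 1 SE on each side and open diamonds for scaling by library totals. The circles run from -1.41 (Cbx7) to 3.54 (Uhrf1), and the diamonds lie to the right of the circles.

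The scaling of the libraries bears on every small change. With library totals in place of the main factors the median over all genes moved from 0.04 to 0.31 on the log2 scale, 41.1% of all genes rose and 12.7% fell, and of the 44 genes 28 rose and 5 fell, with a median of 0.38. The 5 that still fell were Bmi1, Cbx7, Rnf2, Hdac4 and Sirt2. In all, 14 of the 22 called genes passed in the same direction under each of 20 alternative settings: Dnmt1, Dnmt3b, Uhrf1, Ezh2, Eed, Kdm2b, Suv39h1, Suv39h2 and Dot1l rose, and the same 5 fell. No called gene changed direction under any of the 20. Without control 2, 9 of the 44 rose, against 14.9% of all genes (16.2% fell, 31% together).

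Library totals ran from 24772716 to 32960007 counts, and 3 counts, used as the upper limit where a count is 0, equal 0.0873 to 0.132 CPM. Such limits cover counting error only. The endothelial identity of the cells was seen in the 8 endothelial markers, which summed to 17510 to 19460 CPM in controls and 9832 to 14360 CPM in KO libraries, and 5 of the 8 fell (Pecam1, Kdr, Tek, Erg and Eng). In bulk samples fewer cells of a type and less RNA per cell cannot be told apart. Of 10 hepatocyte markers 6 rose, with sums of 283 to 330 CPM in controls and 1417, 355, 456 and 704 CPM in KO 1 to 4. Of 10 genes of the dissociation stress response 4 rose, with sums of 6449 to 8502 CPM in controls and 19060, 15560, 9363 and 11750 CPM in KO 1 to 4. Platelet markers summed to 16.5 to 20.4 and 29.0 to 42.5 CPM (4 of 5 rose), erythroid markers to 2.54 to 10.1 and 5.82 to 40.0 CPM (0 of 5 tested were called), and Kupffer cell markers to 44.9 to 109 and 33.3 to 122 CPM (1 of 7 rose). Stellate cell and fibroblast markers summed to 14.9, 37.4 and 163 CPM in controls 1 to 3 and to 7.32 to 47.2 CPM in KO libraries (4 of 8 fell). No T or NK cell marker could be tested, Ncr1 was at 0 in every library, and 0 of 2 neutrophil and 0 of 3 cholangiocyte markers tested were called. The part of these other cells in the results below was not tested. The counts were therefore repeated without KO 1 and KO 4, the libraries highest in hepatocyte and erythroid transcripts, which left 10 of the 44 genes rising and 6 falling (14.5% and 15.7% of all genes, 30.2% together), and without control 3 and KO 1, which left 10 and 7 (16.2% and 16.7%, 32.9% together). Lane 4 held control 3 and KO 3, per the labels, and in the 5 libraries of lane 5 alone 12 of the 44 rose and 8 fell (19.4% and 24.2% of all genes, 43.6% together).

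Of the 7 DNA methylation genes, 5 rose and none fell, with a median change of 0.82 on the log2 scale against 0.04 over all genes tested. Rises made up 71.4% of the class, against 23% of all genes tested. The count, the share and the median all include Tet1, which had to be higher in the KO to be tested. Apart from it, Uhrf1, Dnmt1, Dnmt3b and Tet2 rose. With a mean CPM of at least 1, where Tet1 was not tested, 3 of 6 rose. The maintenance pair moved together: Uhrf1, the protein that recognises DNA methylated on the old strand only, was 11.7-fold higher and Dnmt1, the maintenance methyltransferase, 1.77-fold higher. Dnmt3b, a methyltransferase that sets new methylation, was 2.25-fold higher, while its relative Dnmt3a was at 143 ± 15.8 CPM in controls (SD, n = 3) and 147 ± 8.75 CPM in the KO (SD, n = 4) and did not pass. The 3 genes with the smallest p-values of the class passed under each alternative, and the other 2, Tet1 and Tet2, did not.

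The promoters of Uhrf1, Dnmt1 and Ezh2 are shown because each of these risen genes holds a motif of the type bound by E2F factors, the regulators of genes of S phase. Each window is the reference promoter from RefSeq (build GRCm38.p6), 250 bases before to 50 after an annotated start, printed 5′ to 3′ on the gene's own strand with the motif in capitals. The motifs searched on both strands were TTTCCCGC, TTTGGCGC and TTTCGCGC, and a motif on the opposite strand appears in the line as its reverse complement. Uhrf1 is at chr17:56304063-56304362 on the plus strand, Dnmt1 at chr9:20952574-20952873 and Ezh2 at chr6:47594981-47595280, both on the minus strand.
Uhrf1: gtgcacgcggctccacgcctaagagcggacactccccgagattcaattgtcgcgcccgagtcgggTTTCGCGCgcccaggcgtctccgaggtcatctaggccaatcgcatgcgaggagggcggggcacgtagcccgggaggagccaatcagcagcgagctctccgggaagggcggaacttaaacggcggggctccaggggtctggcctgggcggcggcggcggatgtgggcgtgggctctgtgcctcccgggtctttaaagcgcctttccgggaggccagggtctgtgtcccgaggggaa
Dnmt1: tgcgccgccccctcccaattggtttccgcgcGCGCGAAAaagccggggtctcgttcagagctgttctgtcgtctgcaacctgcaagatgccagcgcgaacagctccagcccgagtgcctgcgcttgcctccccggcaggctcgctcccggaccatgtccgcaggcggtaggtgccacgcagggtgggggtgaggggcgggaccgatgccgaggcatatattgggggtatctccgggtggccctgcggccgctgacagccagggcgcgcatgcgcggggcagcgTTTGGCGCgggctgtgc
Ezh2: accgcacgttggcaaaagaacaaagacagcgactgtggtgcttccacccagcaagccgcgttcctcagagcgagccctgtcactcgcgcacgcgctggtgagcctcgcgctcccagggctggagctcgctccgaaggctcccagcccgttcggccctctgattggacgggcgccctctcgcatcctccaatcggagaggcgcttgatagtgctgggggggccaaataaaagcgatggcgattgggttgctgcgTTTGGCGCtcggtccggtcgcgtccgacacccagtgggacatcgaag
In Uhrf1 the capitals are TTTCGCGC, 185 bases before the start; this is 1 of 2 Uhrf1 starts in the reference and lies inside the annotated gene, and the window of the other start holds none of these 3. In Dnmt1 they are TTTCGCGC on the opposite strand, 219 bases before the start, and TTTGGCGC, 33 bases after it. This is 1 of 3 Dnmt1 starts in the reference and lies inside the annotated gene. The windows of the other Dnmt1 starts hold none of these 3. Another of these windows, chr9:20952930-20953229, lies upstream of the printed one, so both printed motifs are downstream of another annotated start. In Ezh2 they are TTTGGCGC, 3 bases after the start. Promoter entries were found for 40 of the 44 genes, 55 windows in all. At least 1 E2F-type motif was present for 3 of the 14 matched genes that rose, for 1 of the 19 that did not pass (Suz12) and for 0 of the 7 that fell, and in 1.84% of all 32851 promoter windows of the same length. The CHR motif TTTGAA, known from genes of mitosis, was present on either strand for 4 of the 14 that rose, 1 of the 7 that fell and 2 of the 19 that did not pass, and in 17.9% of all windows. Genes with several windows have more chances of a match than a single window, and a match is a description of letters, not of binding.

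Uhrf1 lies on chromosome 17 (56303321 to 56323486, plus strand, GRCm38). Its level was 3.93, 3.91 and 6.10 CPM in controls 1 to 3 and 59.2, 47.6, 44.03 and 65.2 CPM in KO 1 to 4. The lowest KO library stood far above the highest control, control 3, and the change was 3.54 on the log2 scale (SE 0.213, adjusted p = 9.75e-06). Compared per length of exon, Uhrf1 moved from rank 41 of the 44 genes in controls (1.09 CPM per kb) to rank 16 in the KO (12.7 CPM per kb).

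Dnmt1 (chromosome 9, 20907209 to 20959888, minus strand) was at 101, 98.4 and 102 CPM in controls and at 175, 168, 168 and 198 CPM in KO libraries. Every KO library lay above the controls, which were close together, a change of 0.82 on the log2 scale (SE 0.0905, adjusted p = 0.000155). Dnmt3b (chromosome 2, 153649450 to 153687730, plus strand) was at 9.68, 10.7 and 11.1 CPM in controls and at 26.1, 24.5, 19.99 and 23.9 CPM in KO libraries. Its groups did not overlap either, and the change was 1.17 (SE 0.119, adjusted p = 0.0001). Dnmt3a was at 136, 161 and 133 CPM in controls and 160, 142, 144 and 142 CPM in KO libraries, so that the groups overlapped (log2 change 0.04, SE 0.0987, adjusted p = 0.766). Without control 1, control 3 or KO 1 its small change turned to -0.0014, -0.02 and -0.0054 on the log2 scale. As a share of the summed CPM per kb of the 3 methyltransferases, Dnmt1 made up 56.1% ± 2.66 in controls (SD, n = 3) and 64.1% ± 2.30 in the KO (SD, n = 4), and Dnmt3b 8.47% ± 0.531 and 12.3% ± 1.14.

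The Tet genes gave weaker differences. Tet1 had only 6, 5 and 5 counts in controls and 16, 16, 17 and 16 counts in KO libraries, or 0.218, 0.208 and 0.219 CPM against 0.566, 0.521, 0.495 and 0.472 CPM. The log2 change was 1.23 (SE 0.312, adjusted p = 0.0112), with adjusted p = 0.0504 without control 2 and 0.0684 by DESeq2, and the gene had to be higher in the KO to pass the filter at all. Tet2 was at 55.9, 53.8 and 54.4 CPM in controls and 74.9, 60.6, 59.02 and 73.2 CPM in KO libraries, highest in KO 1 and KO 4, a change of 0.29 (SE 0.103, adjusted p = 0.0447). Its call was lost in 14 of 20 alternatives, with adjusted p between 0.0875 and 0.134 without control 1, control 2, control 3, KO 1 or KO 4 in turn, and the change was 0.13 without KO 1 and KO 4 together (adjusted p = 0.26). Tet3 was at 196, 230 and 194 CPM in controls and 172, 191, 201 and 183 CPM in KO libraries and did not pass (log2 change -0.15, adjusted p = 0.255; 0.12 with library totals). The number of DNA methylation genes that rose was 3 without control 2, by DESeq2, in lane 5 alone and without either pair of doubted libraries.

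Genes of the cell cycle moved beside these. Of 17 DNA replication genes 15 rose, with sums of 347 to 378 CPM in controls and 707 to 794 CPM in KO libraries. All 15 mitosis genes rose, with sums of 76.3, 60.6 and 114 CPM in controls 1 to 3 and 673 to 761 CPM in KO libraries. Control 3 was the highest control for the mitosis sum, as it was for Uhrf1. The part of cell division in the changes of the 44 genes was not tested.

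**Figure D2:**
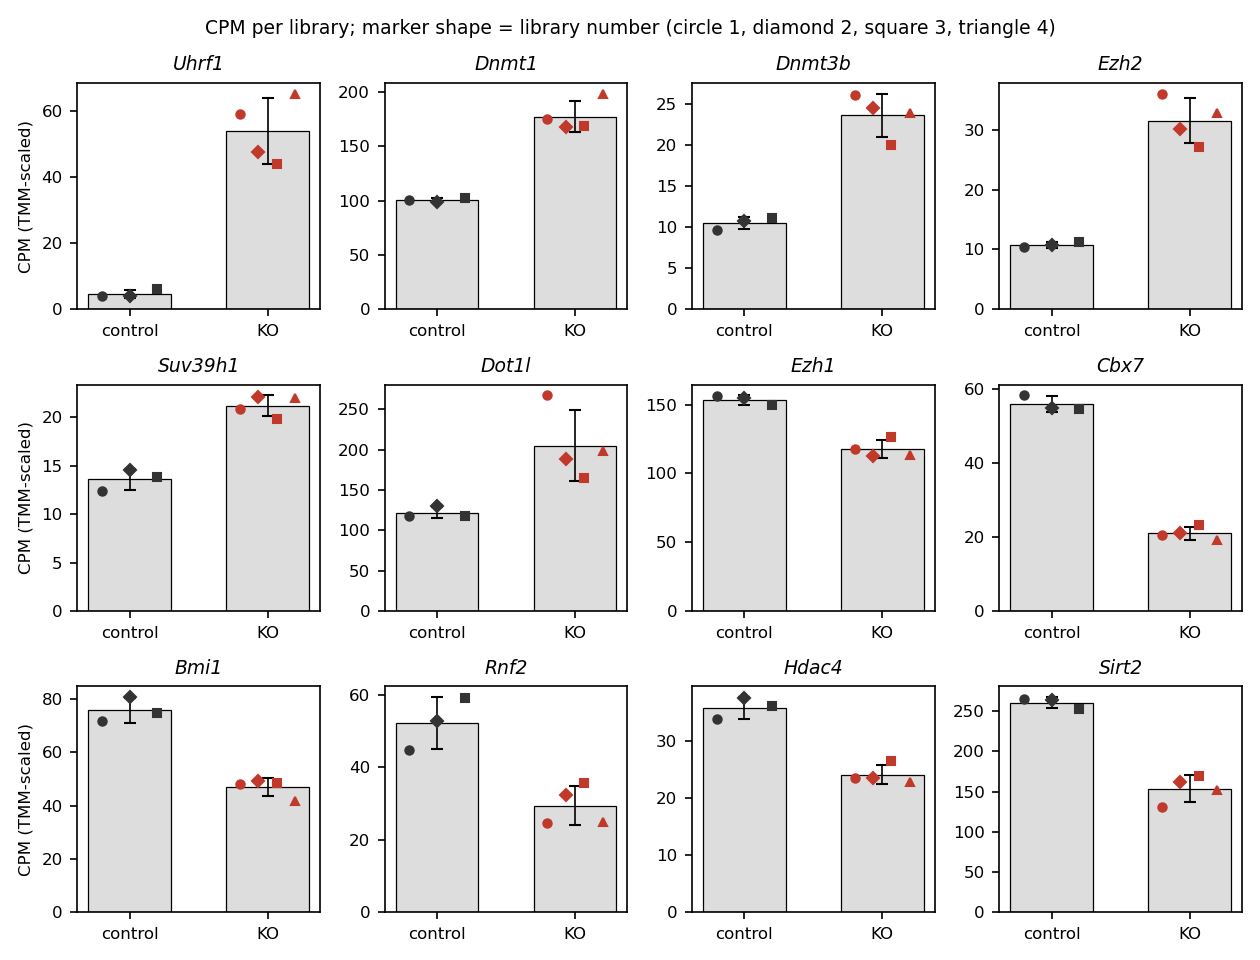
Scaled CPM of 12 of the genes in each library (vertical axes), controls at the left and KO at the right of each panel, with a marker shape for each library number, grey bars for group means and error bars for the SD. The groups do not overlap in any of the 12 panels; Uhrf1 runs from 3.91 to 6.10 CPM in controls and from 44.03 to 65.2 CPM in KO libraries.

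Of the 12 Polycomb genes, 3 rose (Ezh2, Eed and Cbx2), 4 fell (Ezh1, Bmi1, Cbx7 and Rnf2) and 5 did not pass, with a median change of -0.06 on the log2 scale. Rises made up 25% and falls 33.3% of the class, against 23% and 22.2% of all genes tested. The catalytic subunits of complex 2 moved in opposite directions, with Ezh2 2.92-fold higher and Ezh1 1.30-fold lower. In complex 1 the chromodomain subunit Cbx7 was 2.66-fold lower, the ubiquitin ligase Rnf2 1.78-fold lower and its partner Bmi1 1.61-fold lower, while Cbx2 was 1.62-fold higher. With library totals 5 of the 12 rose and 3 fell.

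Ezh2, a methyltransferase of complex 2 (chromosome 6, 47530139 to 47595341, minus strand), was at 10.3, 10.7 and 11.3 CPM in controls and 36.0, 30.0, 27.2 and 32.8 CPM in KO libraries. Every KO library was above every control, and the change was 1.55 on the log2 scale (SE 0.116, adjusted p = 2.53e-05). Its paralog Ezh1 (chromosome 11, 101191115 to 101226463, minus strand) was at 156, 155 and 150 CPM in controls and 118, 113, 127 and 113 CPM in KO libraries, a change of -0.38 (SE 0.0796, adjusted p = 0.00436). With library totals Ezh1 changed by -0.12 (adjusted p = 0.198), so its fall depends on the scaling. The ratio of the paralogs within a library does not. Ezh2 made up 6.87%, 7.15% and 7.74% of the summed CPM per kb of the pair in controls and 25.3%, 22.9%, 19.2% and 24.4% in KO libraries, so that Ezh1 remained the larger share in all 7.

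Eed, the subunit that binds the mark made by complex 2, was at 33.2, 34.2 and 35.3 CPM in controls and 45.6, 45.7, 39.5 and 46.8 CPM in KO libraries (log2 change 0.37, SE 0.0859, adjusted p = 0.0071). KO 3 was the lowest KO library and still lay above the controls. Suz12, the scaffold of complex 2, was at 53.4 to 66.1 CPM in controls and 50.6 to 60.7 CPM in KO libraries (log2 change -0.10, adjusted p = 0.437; 0.17 with library totals). The histone-binding subunits Rbbp4 and Rbbp7 did not pass. Rbbp4 was at 122, 125 and 124 CPM in controls and 84.8, 106, 118 and 90.6 CPM in KO libraries (log2 change -0.31, adjusted p = 0.0572), and passed in 5 of the 20 alternatives: without KO 3 (adjusted p = 0.00806), in lane 5 alone (0.0131), by DESeq2 (0.0346), with a mean CPM of at least 1 (0.0394) and with the DESeq2 size factors in edgeR (0.0489). Rbbp7 was at 81.6 to 87.7 and 83.6 to 97.0 CPM (log2 change 0.11, adjusted p = 0.278).

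For complex 1, the promoters of Cbx7 and Rnf2 are shown because both genes fell and both windows hold TGCTGAC, the core of the motif that c-Maf and its relatives bind. This motif was added to the search after the other results had been seen. Cbx7 is at chr15:79932597-79932896 and Rnf2 at chr1:151500942-151501241, both on the minus strand and both from RefSeq (GRCm38.p6), printed as above. The capitals mark TGCTGAC on the opposite strand, hence GTCAGCA in the line, 182 bases before the start in Cbx7 and 143 before it in Rnf2. The transcribed end of the Rnf2 window was not found in the annotated transcripts of the gene, so that distance holds for the RefSeq start only.
Cbx7: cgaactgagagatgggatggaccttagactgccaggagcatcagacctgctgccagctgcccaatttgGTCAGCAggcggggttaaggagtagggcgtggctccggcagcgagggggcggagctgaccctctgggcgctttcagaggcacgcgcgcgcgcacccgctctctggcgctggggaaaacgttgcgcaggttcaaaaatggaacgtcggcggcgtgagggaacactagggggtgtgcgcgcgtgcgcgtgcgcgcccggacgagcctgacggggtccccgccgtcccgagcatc
Rnf2: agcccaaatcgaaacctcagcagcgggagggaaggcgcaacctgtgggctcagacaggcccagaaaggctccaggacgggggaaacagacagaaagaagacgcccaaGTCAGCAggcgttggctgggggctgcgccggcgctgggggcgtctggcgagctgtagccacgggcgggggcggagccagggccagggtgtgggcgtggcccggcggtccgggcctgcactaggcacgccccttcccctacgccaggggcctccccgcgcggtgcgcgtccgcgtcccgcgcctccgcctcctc
The motif was found on either strand for 2 of the 7 genes that fell, 0 of the 14 matched genes that rose and 0 of the 19 that did not pass, and in 4.67% of all promoter windows. With 7 genes these are letters in a window, and no binding was measured.

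Cbx7, which reads the mark of complex 2 (chromosome 15, 79915807 to 79971119, minus strand), was at 58.2, 54.7 and 54.6 CPM in controls and 20.5, 21.0, 23.3 and 19.2 CPM in KO libraries. The highest KO library was far below the lowest control, and the change was -1.41 on the log2 scale (SE 0.0878, adjusted p = 1.07e-05). Bmi1 (chromosome 2, 18677018 to 18686629, plus strand) was at 71.7, 80.8 and 74.7 CPM in controls and 48.3, 49.4, 48.4 and 41.7 CPM in KO libraries (log2 change -0.69, SE 0.0858, adjusted p = 0.000296). Rnf2 (chromosome 1, 151458004 to 151500955, minus strand) was at 44.9, 52.8 and 59.2 CPM in controls and 24.6, 32.4, 35.6 and 25.1 CPM in KO libraries (log2 change -0.83, SE 0.152, adjusted p = 0.00231). These 3 falls passed under each alternative, library totals included.

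The other complex 1 genes did not follow them. Cbx2, another chromodomain subunit, was at 6.70, 4.12 and 6.32 CPM in controls and 10.2, 8.20, 8.38 and 10.3 CPM in KO libraries (log2 change 0.70, SE 0.193, adjusted p = 0.0168). Its call was lost without control 2 (adjusted p = 0.0554), without KO 4 (0.0513) and without KO 1 and KO 4 together (0.124). Cbx8, a further chromodomain subunit, was at 6.37, 2.79 and 4.34 CPM in controls and 6.32 to 6.83 CPM in KO libraries and did not pass (log2 change 0.54, adjusted p = 0.102), except without control 1 (adjusted p = 0.0141) and with library totals (0.0272). Ring1, the paralog of Rnf2, was at 34.3 to 37.3 CPM in controls and 31.1 to 39.0 CPM in KO libraries (log2 change -0.02, adjusted p = 0.888), and its small change turned to 0.25 with library totals, 0.11 with upper-quartile factors and 0.02 without control 1 or KO 3.

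Shares within pairs of paralogs do not depend on library scaling and are given as a description with no test. Bmi1 made up 60.0% ± 2.89 of the summed CPM per kb of Bmi1 and Pcgf2 in controls (SD, n = 3) and 42.9% ± 2.27 in the KO (SD, n = 4), and Rnf2 53.5% ± 4.55 of Ring1 and Rnf2 in controls and 39.7% ± 6.49 in the KO. Controls and KO libraries did not overlap for either share, although for Rnf2 the highest KO library, KO 3 at 47.3%, came close to the lowest control at 48.6%.

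**Figure D3:**
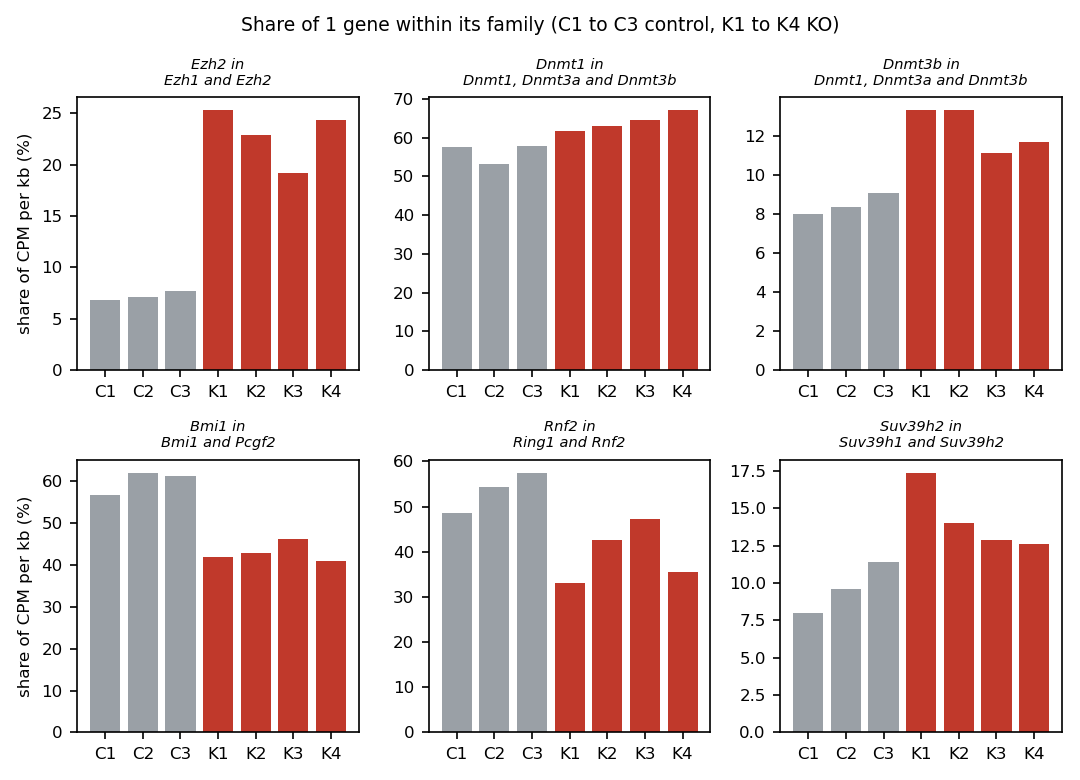
Share of a paralog in the summed CPM per kb of its family, in percent, with 1 bar for each library, grey for controls 1 to 3 (C1 to C3) and red for KO 1 to 4 (K1 to K4), for 6 shares. Ezh2 lies at 6.87% to 7.74% in controls and at 19.2% to 25.3% in KO libraries, and Bmi1 at 56.7% to 62.0% in controls and at 40.9% to 46.1% in KO libraries.

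Of the 10 histone deacetylases and sirtuins, 2 rose (Hdac2 and Sirt6), 2 fell (Hdac4 and Sirt2) and 6 did not pass. Each direction held 20% of the class, against 23% rising and 22.2% falling over all genes tested. The falls passed under each alternative and the rises did not. Sirt2, a deacetylase of tubulin and histones (chromosome 7, 28766735 to 28788661, plus strand), was at 265.4, 263.8 and 252.2 CPM in controls and 131, 162, 170 and 152 CPM in KO libraries. It was 1.69-fold lower, with no overlap (log2 change -0.76, SE 0.105, adjusted p = 0.000514). Per length of exon it was the second most abundant of the 44 genes in controls (51.7 CPM per kb) and the fifth in the KO (30.5 CPM per kb). Hdac4, a class IIa deacetylase (chromosome 1, 91928779 to 92195699, minus strand), was at 33.7, 37.5 and 36.1 CPM in controls and 23.5, 23.4, 26.5 and 22.7 CPM in KO libraries (log2 change -0.57, SE 0.0876, adjusted p = 0.000888). A noncoding gene on the opposite strand shares 22.4% of the Hdac4 exon bases, and was listed at 0 CPM in both groups.

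Hdac2, a class I deacetylase of several corepressor complexes, was at 54.8, 56.3 and 57.2 CPM in controls and 64.6, 67.0, 66.1 and 66.6 CPM in KO libraries, 1.18-fold higher (log2 change 0.24, SE 0.0665, adjusted p = 0.0178). Sirt6, a deacetylase of chromatin, was at 24.6, 22.5 and 23.4 CPM in controls and 29.9, 29.5, 25.9 and 33.5 CPM in KO libraries (log2 change 0.34, SE 0.103, adjusted p = 0.0252). The groups did not overlap for either gene, but the differences were small. The Hdac2 call was lost without control 1 (adjusted p = 0.0686), control 2 (0.0753), control 3 (0.0553) or KO 2 (0.0552), and the Sirt6 call without control 2 (0.102), control 3 (0.0743), KO 2 (0.0519) or KO 4 (0.0646). The number of the 10 that rose was 0 without control 2, control 3, KO 2 or control 3 and KO 1 together, 1 without control 1 or KO 4, and 5 with library totals.

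Hdac7, the class IIa deacetylase known for its role in endothelial cells, was the most abundant of the 44 genes per length of exon in both groups (103 CPM per kb in controls, 126 CPM per kb in the KO). It was at 709, 713 and 661 CPM in controls and 926, 914, 769 and 805 CPM in KO libraries, with no overlap, and did not pass (log2 change 0.30, SE 0.116, adjusted p = 0.0632). It passed without KO 3 (adjusted p = 0.0251), by DESeq2 (0.0177) and with library totals (0.00301). Hdac1, Hdac3, Hdac5, Hdac9 and Sirt1 also did not pass, with log2 changes of -0.10, 0.14, 0.11, 0.08 and -0.23 and adjusted p of 0.451, 0.176, 0.488, 0.757 and 0.0648. Sirt1 passed without KO 1 (adjusted p = 0.0472). With library totals Hdac1 turned to 0.17 and Sirt1 to 0.03, and Hdac9 turned to -0.0068 without control 3.

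Of the 15 methyltransferases, demethylases and acetyltransferases, 5 rose (Suv39h1, Suv39h2, Kdm2b, Dot1l and Kmt2d), 1 fell (Ep300) and 9 did not pass. Rises made up 33.3% and falls 6.67% of the class, against 23% and 22.2% of all genes tested. Suv39h1 and Suv39h2, a pair of enzymes that make the heterochromatin mark of histone H3, both rose. The related methyltransferases Setdb1, Ehmt1 and Ehmt2 did not pass. With library totals 12 of the 15 rose and 0 fell, so the balance of the class depends on the scaling. The number that fell was also 0 without control 2 and without KO 1 and KO 4 together, and 2 without KO 3.

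Suv39h1 (chromosome X, 8061171 to 8074760, minus strand) was at 12.5, 14.5 and 13.9 CPM in controls and 20.8, 22.1, 19.9 and 22.0 CPM in KO libraries (log2 change 0.64, SE 0.0976, adjusted p = 0.00087). Suv39h2 (chromosome 2, 3455815 to 3475031, minus strand) was at 0.910, 1.29 and 1.49 CPM in controls and 3.68, 3.03, 2.47 and 2.66 CPM in KO libraries (log2 change 1.27, SE 0.251, adjusted p = 0.00345). Both passed under each alternative, and Suv39h1 remained the more abundant per length, with Suv39h2 at 9.67% ± 1.68 of the pair in controls (SD, n = 3) and 14.3% ± 2.20 in the KO (SD, n = 4). Antisense and neighbouring genes share 14.6% of the exon bases of Suv39h1 and 9.98% of those of Suv39h2. Dclre1c, a partner of Suv39h2, was not called, but it was far more abundant, at 16.7 and 18.2 CPM (group means, control and KO). Without a stated strand setting, reads from the shared bases of the 2 genes cannot be told apart.

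Dot1l, the methyltransferase of the nucleosome core that marks transcribed genes (chromosome 10, 80755206 to 80795461, plus strand), was at 118, 130 and 118 CPM in controls and 267, 189, 165 and 198 CPM in KO libraries. It was 1.68-fold higher, with the highest value in KO 1 (log2 change 0.75, SE 0.156, adjusted p = 0.00441). Kdm2b, a demethylase that also brings a variant Polycomb complex 1 to CpG islands (chromosome 5, 122870665 to 122989823, minus strand), was at 18.6, 20.1 and 17.6 CPM in controls and 30.1, 28.7, 27.2 and 25.1 CPM in KO libraries (log2 change 0.56, SE 0.0969, adjusted p = 0.00164). Both passed under each alternative. Other genes share 8.74% of the exon bases of Kdm2b. The most abundant of these, Rnf34, was at 21.0 and 20.1 CPM (group means, control and KO) and was not called.

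Kmt2d, a methyltransferase of enhancers, was at 250, 257 and 225 CPM in controls and 354, 321, 281 and 314 CPM in KO libraries (log2 change 0.38, SE 0.109, adjusted p = 0.02). Its call was lost without control 1 (adjusted p = 0.0503), control 2 (0.0524) or control 3 (0.0893). Ep300, the acetyltransferase p300, was at 133, 149 and 131 CPM in controls and 101, 111, 114 and 94.3 CPM in KO libraries (log2 change -0.39, SE 0.0954, adjusted p = 0.0098). Its call was lost without control 2 (adjusted p = 0.0546) and with library totals (log2 change -0.12, adjusted p = 0.189). Its paralog Crebbp was at 79.4 to 99.4 CPM in controls and 88.9 to 98.0 CPM in KO libraries and did not pass (log2 change 0.07, adjusted p = 0.585), turning to -0.03 without control 3.

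Kdm6b, a demethylase that removes the mark of complex 2, differed widely among KO libraries, at 179, 136, 101 and 93.6 CPM against 120, 106 and 100 CPM in controls, and did not pass (log2 change 0.23, SE 0.208, adjusted p = 0.389). KO 1 and KO 2, its highest libraries, were also the highest in the stress genes. Kmt2a, Kdm4a and Ehmt1 were higher in every KO library than in every control and did not pass, with log2 changes of 0.21, 0.12 and 0.19 and adjusted p of 0.102, 0.213 and 0.0524. Kdm1a, Kdm5b, Setdb1 and Ehmt2 had overlapping groups, with log2 changes of 0.03, -0.15, 0.07 and 0.11 and adjusted p of 0.797, 0.168, 0.491 and 0.371. Kdm5b passed without KO 3 (adjusted p = 0.0469) and turned to 0.11 with library totals, and Kdm1a turned to -0.02 without KO 2.

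The KO libraries were not alike. For 5 of the 7 genes that fell, KO 1 and KO 4 both lay below KO 2 and KO 3 (71.4%, against 64.6% of all genes that fell), and for 7 of the 15 that rose both lay above (46.7%, against 40.5% of all genes that rose). KO 1 and KO 4 also had the lowest Maf, at 28.9 and 37.7 CPM, the highest hepatocyte and erythroid sums and the lowest endothelial sums. Their part in this order was not tested.

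A further 115 genes of the same complexes and pathways were followed, of which 114 could be tested. As many rose as fell, 30 each, or 26.3% in each direction against 23% and 22.2% of all genes tested, with a median change of -0.03 on the log2 scale. The 30 that rose include the Polycomb subunit gene Epop, which, like Tet1, had to be higher in the KO to be tested. With library totals 52 rose and 7 fell. The number that fell was 18 without control 2 and 19 without either pair of doubted libraries, where 16.2%, 15.7% and 16.7% of all genes fell in turn.

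Among 16 tested partners and readers of DNA methylation 4 rose and 5 fell (25% and 31.25%, against 23% and 22.2% of all genes tested). The rises were Hells, a remodeller needed for DNA methylation (2.94 ± 0.506 CPM in controls, SD, n = 3, and 17.2 ± 1.70 CPM in the KO, SD, n = 4; log2 change 2.55, SE 0.157, adjusted p = 1.04e-05), the replication clamp Pcna (0.79), the isocitrate dehydrogenase Idh2 (0.45) and the DNA glycosylase Tdg (0.37). The falls included Idh1 (-1.04), the methyl-CpG binding zinc finger genes Zbtb4 (-0.83) and Zbtb38 (-0.82), and the reader Mbd2 (-0.50). Tdg lost its call without control 1, control 2, KO 2, KO 3 or KO 4.

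Of 25 other Polycomb subunits 5 rose and 6 fell, or 20% and 24%, against 23% and 22.2% of all genes tested. The 5 that rose include Epop, which had to be higher in the KO to be tested. The accessory subunits of complex 2 split: Phf19 rose 2.95-fold (log2 change 1.56, SE 0.124, adjusted p = 3.23e-05), Mtf2 rose (0.48) and Phf1, their paralog, fell (-0.60, SE 0.0792, adjusted p = 0.000418). Other genes share 43.8% of the exon bases of Phf1, among them Cuta on the opposite strand, which was at 65.6 and 52.2 CPM (group means) and also fell (-0.33, adjusted p = 0.0257), and without a stated strand setting their reads cannot be told apart. Epop, another accessory subunit, had 5, 5 and 7 counts in controls and 77, 86, 44 and 90 counts in KO libraries (log2 change 3.33, SE 0.395, adjusted p = 0.000225), and like Tet1 it passed the filter only through the KO. The ring finger genes Pcgf6 and Pcgf2 rose by 1.13 and 0.31 on the log2 scale, the latter not without control 2, control 3, KO 1 or KO 2. The other falls were of the complex 1 genes Cbx6, Phc3, Rybp, Scmh1 and Pcgf3, and none of these passed with library totals. Rybp lost its call without control 2 as well, and Pcgf3 in most alternatives that left out a library. With library totals 8 of the 25 rose and 1 fell.

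Of 18 other deacetylases and corepressor subunits 5 rose and 2 fell (27.8% and 11.1%, against 23% and 22.2% of all genes tested). The rises included the corepressor subunit Tbl1xr1 (log2 change 0.46), the deacetylases Hdac10 (0.46) and Hdac6 (0.34) and the sirtuin Sirt4 (0.51), and the corepressor Ncor1 (-0.42) and Sirt5 (-0.36) fell. Neither fall passed with library totals, and each was lost without control 2. Sirt5 was lost as well without control 1, KO 1 or KO 2, and the rise of Hdac6 without control 1 or control 2.

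Of 31 other methyltransferases and partners 12 rose and 7 fell (38.7% and 22.6%, against 23% and 22.2% of all genes tested). The 4 with the smallest p-values all rose: Nsd2 (log2 change 0.77, SE 0.0811, adjusted p = 0.000123), Kmt5a and Kmt5c, methyltransferases of histone H4 (0.81 and 0.90), and the arginine methyltransferase Prmt5 (0.66). The number that fell was 4 without control 2 and without KO 1 and KO 4 together. Of 11 other acetyltransferases 4 rose and 2 fell (36.4% and 18.2%, against 23% and 22.2% of all genes tested). Kat2a was up by 0.68 and its paralog Kat2b down by 0.35 on the log2 scale, the latter not with library totals (-0.08, adjusted p = 0.313). Naa10 (0.79), Hat1, which acetylates new histones (0.50), and Kat8 (0.26) also rose, and Kat6a fell (-0.36). Kat8 and Kat6a lost their calls in most alternatives that left out a library.

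Of 13 other demethylases none rose and 8 fell, 61.5% against 22.2% of all genes tested, with a median change of -0.30 on the log2 scale. Phf2 fell by 0.65 on the log2 scale (SE 0.103, adjusted p = 0.00106), Kdm4c by 0.46, Kdm5a by 0.43 and Kdm6a, which removes the mark of complex 2, by 0.30. The number that fell was 5 without control 2 and 4 without control 3 and KO 1 together. The calls rest on the scaling: with library totals 1 of the 13 fell and 2 rose. The median of the 13 lay below that of all genes under both scalings. It was -0.30 against 0.04 in the main analysis and -0.03 against 0.31 with library totals.

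**Figure D4:**
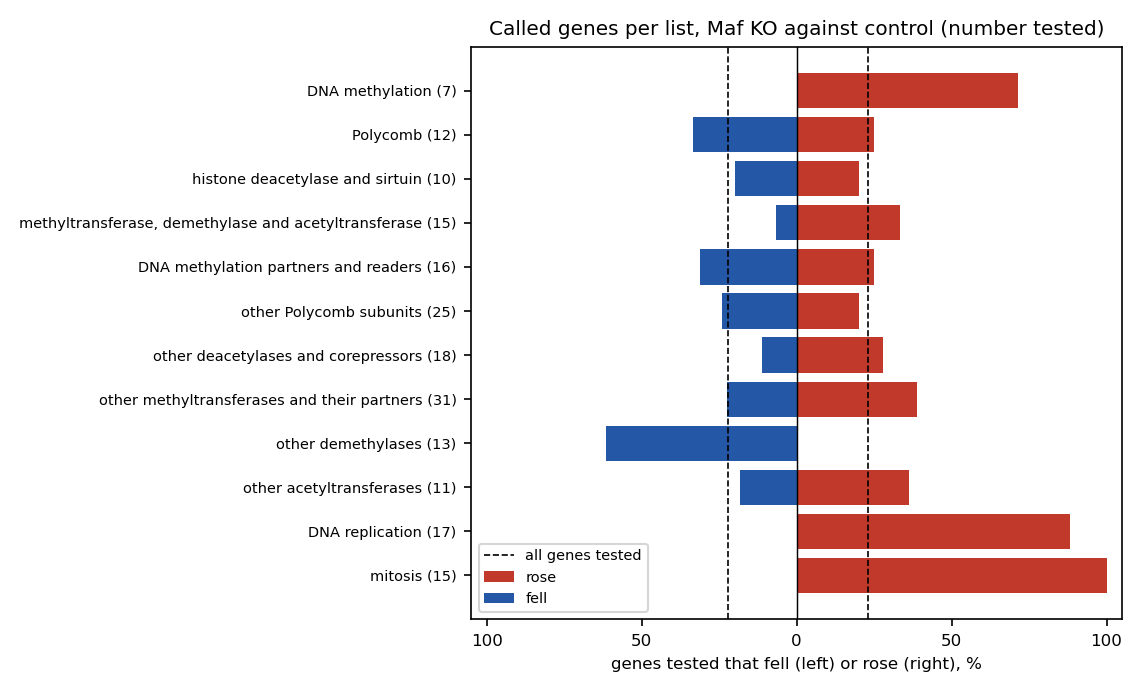
Percent of tested genes that rose (right) and fell (left) in each class of the 44 genes, in each list of related genes and in the DNA replication and mitosis lists, with the number tested in brackets and dashed lines at the percent of all genes tested (23% and 22.2%). The DNA methylation class has 71.4% rising (Tet1 included) and none falling, and the other demethylases have 61.5% falling and none rising. The rises of the other Polycomb subunits include Epop, which had to be higher in the KO to be tested.

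Lists that hold genes known in other settings as targets of Polycomb or of DNA methylation were read as well. Of 7 cell cycle inhibitor genes of the Ink4 and Cip families 5 rose and 1 fell (71.4% and 14.3%, against 23% and 22.2% of all genes tested). Not all of the 7 are known as such targets, so these shares do not describe Polycomb or methylation targets as a group. Cdkn2a, the textbook Polycomb target that encodes p16 and p19 in the mouse, was at 6.44, 7.12 and 7.11 CPM in controls and 13.8, 19.8, 18.7 and 17.1 CPM in KO libraries (log2 change 1.33, SE 0.144, adjusted p = 0.000138). Cdkn2c was 2.97-fold higher, Cdkn2d and Cdkn2b rose by 0.51 and 0.59 on the log2 scale, and Cdkn2b lost its call without control 2, control 3, KO 2 or KO 4. The number of the 7 that rose was 3 without control 3 and KO 1 together. Cdkn1a was at 96.9, 160 and 209 CPM in controls and 525, 317, 261 and 333 CPM in KO libraries (log2 change 1.21, SE 0.296, adjusted p = 0.0096). KO 1 was highest for Cdkn1a and for the stress genes. In controls 1 to 3 the stress sum ran the other way, at 8502, 7721 and 6449 CPM. KO 2 lay above KO 4 for that sum but not for Cdkn1a, and the part of stress was not tested. Cdkn1c, an imprinted gene, was at 22.0, 21.4 and 24.0 CPM in controls and 3.82, 4.27, 5.53 and 5.31 CPM in KO libraries, 4.74-fold lower (log2 change -2.24, SE 0.147, adjusted p = 1.29e-05).

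Of 25 Hox genes 12 could be tested and the rest were at or near 0 counts in both groups. Among the 12, 3 rose and 3 fell, 25% in each direction, against 23% and 22.2% of all genes tested. Neighbours in the Hoxb cluster went in both directions. Hoxb8 was at 1.53, 1.17 and 1.54 CPM in controls and 4.56, 5.47, 3.73 and 5.40 CPM in KO libraries (log2 change 1.76, SE 0.22, adjusted p = 0.000303), and Hoxb6 (0.76) and Hoxa3 (0.46) rose less. Hoxb5, Hoxb3 and Hoxb4 fell by 1.00, 0.81 and 0.51 on the log2 scale. Hoxb6 lost its call without control 1, control 2 or KO 4, Hoxa3 without control 2, control 3, KO 1 or KO 2, and Hoxb4 with library totals (adjusted p = 0.0557). Of 13 germline genes that DNA methylation is known to silence, only Brdt could be tested. It did not pass, and the other 12 had at most 8 counts in any library.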

How the data were processed

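Polyadenylated RNA of flow-sorted mouse liver endothelial cells was sequenced in 3 control and 4 c-Maf KO libraries. The authors deposited whole-number read counts for each Ensembl gene ID, without normalization. Reads were handled with FastQC 0.11.5 and STAR 2.7.6a on build GRCm38, per the submitters' processing notes. Which tool, annotation release and strand setting produced the counts is not given in the sources used here, and per the labels' protocols an unstranded or a stranded TruSeq kit was used without saying which library had which. Overlapping genes are therefore uncertain: 22 of the 44 genes share exon bases with another gene, 7 of them over 5% (Rbbp4, Rbbp7, Eed, Hdac4, Suv39h1, Suv39h2 and Kdm2b). Of 52636 gene IDs 52403 matched a symbol and 233 did not.

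Counts were filtered with filterByExpr (minimum 10, total 15) and scaled by trimmed mean of M-values (factors 0.8767 to 0.9211 in controls, 1.043 to 1.135 in KO libraries) in edgeR 4.0.16 under R 4.3.3. KO was tested against control over all 15512 genes by the quasi-likelihood F-test without covariates, at a Benjamini-Hochberg adjusted p under 0.05. CPM are scaled by the same factors, and the SE is the size of the log2 change over the square root of the F statistic. Levels per length use the exon length of each gene in GENCODE mouse release M21. The test was tried on simulated counts. Between libraries of a group chi-square per degree of freedom was 14.48 to 106.5, so none were counted as 1 sample. 

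The 44 genes and the lists were chosen with earlier results of these data known. Values could be given for any of the 44, and of each related list for up to 4 called genes with the smallest p-values and for each member of a count of 5 or fewer. Some genes taken by this rule are left out here. Alternatives were library totals, upper-quartile factors, DESeq2 size factors, other filters, DESeq2 1.42.0, limma-voom (limma 3.58.1), a lane covariate, the lane 5 libraries alone, a block for the replicate number, dropping the marker genes of other cell types, and each library left out in turn. The motif TGCTGAC and the fits without KO 1 and KO 4 and without control 3 and KO 1 were chosen after seeing the data.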

Additional observations from a re-analysis of the deposited data

Results flagged for a closer look

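Of 76 genes checked, 5 had 1 library among the 4 KO libraries that stood apart from the other 3 by Dixon's criterion for 4 values, where chance gives about 1 in 20. Dnmt3a was at 160.3 CPM in KO 1 and at 142.1 to 144.2 CPM in the others. Eed was at 39.46 CPM in KO 3 and at 45.63 to 46.77 CPM in the others. Bmi1 was at 41.72 CPM in KO 4 and at 48.28 to 49.39 CPM in the others. Epop was at 1.28 CPM in KO 3 against 2.656 to 2.8 CPM, and Naa10 at 12.25 CPM in KO 3 against 18.12 to 19.01 CPM. The calls of Eed and Bmi1 passed without the library that stood apart.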

How the results depend on the processing

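Of the 22 called genes 14 passed in the same direction under each of 20 alternatives, none changed direction, and 12 genes that were not called did. Scaling had the widest reach. Of all calls 50.8% were rises in the main analysis, 76.3% with library totals and 63.4% under upper-quartile scaling. Library totals had 28 of the 44 genes rising, 5 of the Polycomb genes, 5 of the deacetylases and sirtuins and 12 of the methyltransferase class, in which 0 fell; of the related genes 52 rose and 7 fell. Upper-quartile scaling had 4 deacetylases and sirtuins and 8 of the methyltransferase class rising. The number of DNA methylation genes that rose was 3 with a mean CPM of at least 1 (where Tet1 was not tested), by DESeq2, in lane 5 alone and without either pair of libraries. That of deacetylases and sirtuins was 1 without the filter on low counts, in lane 5 alone and without KO 1 and KO 4 together, and 0 without control 3 and KO 1 together. Without KO 1 and KO 4, 0 of the methyltransferase class and 19 related genes fell, and 4654 genes were called in all in place of 7009; without control 3 and KO 1, 19 related genes fell. Leaving out each library gave 9 to 16 rises and 6 to 9 falls among the 44, 3 to 5 rises among DNA methylation genes, 0 to 3 among deacetylases and sirtuins, 0 to 2 falls in the methyltransferase class and 18 to 37 among related genes. The cause was not tested, except that fewer libraries were used.

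With the replicate number as a block 10 of the 44 genes rose and 7 fell, and 33.3% of all genes were called. In that fit 3 DNA methylation genes and 0 deacetylases and sirtuins rose, and 18 related genes fell. Deviations of each library from its group mean, in log CPM, were correlated between controls and KO libraries. Same-numbered libraries gave -0.0133, 0.162 and 0.0674, and differently numbered ones -0.176 to 0.0781. The value of 0.162, for control 2 and KO 2, was the highest of all. These values do not settle whether libraries were paired. The labels name only a genotype comparison, so the numbers were not taken as pairs. Both libraries numbered 3 shared lane 4, and those numbered 1 and 2 lane 5.

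Among the 44 genes, the log2 changes that turned were all of genes not called; of the called related genes Kdm4b, Pcgf3 and Wdr5 turned with library totals (0.0418, 0.0319 and 0.0337). With library totals Tet3 was at 0.1182, Suz12 0.1657, Ring1 0.2501, Hdac1 0.1663, Sirt1 0.028 and Kdm5b 0.1095, and under upper-quartile scaling Suz12 was at 0.0264, Ring1 0.1108 and Hdac1 0.0269. In lane 5 alone Dnmt3a was at -0.0479, Kdm1a -0.0281 and Crebbp -0.035. Without control 3 and KO 1, Dnmt3a was at -0.0578, Hdac5 -0.0557, Hdac9 -0.0394, Kdm6b -0.0339 and Crebbp -0.0373, and without KO 1 and KO 4 Hdac1 was at 0.0081. Leaving out 1 library at a time gave -0.0188 (without control 3) to 0.1286 for Dnmt3a, also turned without control 1 (-0.0014) and KO 1 (-0.0054). It gave -0.0766 to 0.0217 (without KO 3) for Ring1, also turned without control 1 (0.0172). It gave -0.0068 to 0.1939 for Hdac9 and -0.0258 to 0.1328 for Crebbp, both lowest without control 3, and -0.0194 (without KO 2) to 0.0516 for Kdm1a. At this depth Tet1, with at most 17 counts in a library, is the least precise of the 44.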
